A study of Rattus norvegicus with 8 samples.

Results

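The miR-219 and miR-338 group comprised 5 mature miRNAs taken by name, namely miR-219a-5p, miR-219a-1-3p, miR-219a-2-3p, miR-338-3p and miR-338-5p. All 5 had a row among the 752 mature miRNAs of the count table, and 4 of them were among the 507 miRNAs that passed the filter on low counts. Small RNA was sequenced from the striatum, the input nucleus of the basal ganglia, which serves movement and drug reward, of 8 wild-type male Sprague-Dawley rats. Of these, 4 rats had self-administered methamphetamine (METH) through a jugular catheter by pressing a lever, and 4 rats had self-administered saline by the same procedure after the same surgery. The study chose rats of both groups with stable lever pressing for plasma sampling, and did not say whether the sequenced rats were chosen in this way. The age of the rats was not stated in the sources used here. Each rat gave 1 library, and rats are named by the number their labels give.

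Oligodendrocytes are the glial cells that wrap axons of the central nervous system in myelin. miR-219 and miR-338 are strongly expressed in this lineage, rise as its precursors mature, and repress factors that hold precursors back from differentiation, such as Sox6, Hes5 and Pdgfra. A miRNA hairpin is cut into a duplex with a 5p arm and a 3p arm, and usually the arm that enters the Argonaute protein persists while the other is degraded. The striatum is crossed by bundles of myelinated fibers, so oligodendrocytes are a regular part of this tissue. In tissue RNA, fewer cells of a type and less miRNA per cell cannot be told apart.

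The mature sequences are shown because each arm carries its own seed, bases 2 to 8, which selects target mRNAs and is given in capitals. They were taken from RefSeq on the assembly GRCr8, which held all 5 members.

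rno-miR-219a-5p: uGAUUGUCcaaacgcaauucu

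rno-miR-219a-2-3p: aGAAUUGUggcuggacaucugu

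rno-miR-219a-1-3p: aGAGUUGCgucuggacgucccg

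rno-miR-338-3p: uCCAGCAUcagugauuuuguuga

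rno-miR-338-5p: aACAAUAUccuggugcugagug

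The 5 seeds all differed, and none was shared with another miRNA of the count table that had a RefSeq sequence. The 3p arms of the miR-219a loci were identical at 15 of 22 positions counted from the 5′ end. Of the 7 differences, written with the base of miR-219a-2-3p first, A4G and U8C lay in the seed. The hairpins are shown next, with the mature arms in capitals, because the 5p arm of miR-219a has the same sequence at both loci.

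Mir219-2: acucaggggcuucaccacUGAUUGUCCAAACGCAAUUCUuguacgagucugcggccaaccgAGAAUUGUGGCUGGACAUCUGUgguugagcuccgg

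Mir219a1: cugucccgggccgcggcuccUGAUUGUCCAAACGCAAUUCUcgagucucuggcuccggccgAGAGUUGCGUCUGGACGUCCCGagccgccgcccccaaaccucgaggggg

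Mir338: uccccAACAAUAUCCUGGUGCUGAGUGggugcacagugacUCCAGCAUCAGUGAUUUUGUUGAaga

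On GRCr8, Mir219-2 lies at chr3:33516504-33516599 on the minus strand, Mir219a1 at chr20:4831580-4831689 on the plus strand and Mir338 at chr10:105796342-105796407 on the minus strand. The RefSeq gene table places Mir338 within the span of Aatk, which encodes apoptosis-associated tyrosine kinase, and Mir219-2 within the span of Cercam. Mir219a1 has Hsd17b8 and Ring1 as its nearest protein-coding neighbors. Exon and intron positions were not analysed here, and the reads themselves had been aligned to rn6. A read of miR-219a-5p therefore does not show which locus it came from, whereas the 3p arms do.

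Total counts ranged from 12929302 to 27632443 per library, and the tested miRNAs held at least 99.996% of them. The neuron list of 5 miRNAs, mostly miR-124-3p and miR-9a-5p, summed to between 252921 and 454682 CPM, the count scaled to library size with TMM factors. By contrast, the liver miRNA miR-122-5p reached at most 2.28 CPM. METH rat 4 stood apart from the other libraries: 39.1% of tested miRNAs differed by over 1 on the log2 CPM scale from the mean of the other METH rats. This share was 18.5% in METH rat 1, 12.6% in saline rat 1 and between 4.14% and 9.07% in the other 5 libraries. Each library was set against the other rats of its own group. METH rat 4 was thus part of the reference for the other METH rats, and METH and saline shares are not strictly comparable. The main comparisons of members are given with and without METH rat 4 and saline rat 1 below.

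The most abundant member was miR-219a-2-3p, with rank 59 of 752 by mean CPM over the 8 rats. It was followed by miR-338-3p at rank 91, miR-219a-5p at rank 110 and miR-338-5p at rank 116. The annotated members are 21 to 23 bases long, and no length scaling was applied. Within rats, miR-219a-2-3p exceeded miR-338-3p in 8 of 8 rats, by 1.92 ± 1.05 on the log2 CPM scale (SD, n = 8). miR-338-3p exceeded miR-338-5p in 6 of 8 rats, by 0.49 ± 0.70, so these neighbors did not differ beyond their spread. miR-338-5p exceeded miR-219a-5p in 3 of 8 rats, with a mean difference of 0.08 ± 1.02, so their order was not resolved either. The last member, miR-219a-1-3p, had rank 520 and lay below miR-219a-5p in 8 of 8 rats, by a mean of 9.68 on the log2 CPM scale.

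The level of miR-219a-2-3p, the 3p arm of the chromosome 3 locus, was 2443, 1933, 1794 and 1653 CPM in saline rats 1 to 4. In METH rats 1 to 4 it was 1428, 1624, 2770 and 4119 CPM. METH rats 3 and 4 were above every saline rat and METH rats 1 and 2 below every saline rat, so the groups overlapped. Group means were 1956 ± 344 CPM in saline and 2486 ± 1240 CPM in METH (SD, n = 4 each).

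For miR-219a-5p, the arm that both loci can give, the levels were 144, 523, 599 and 634 CPM in saline rats 1 to 4. In METH rats 1 to 4 they were 380, 566, 544 and 113 CPM. Each group held a single low rat, saline rat 1 and METH rat 4, and the other 6 rats lay between 380 and 634 CPM. Group means were 475 ± 226 CPM in saline and 401 ± 209 CPM in METH (SD, n = 4 each).

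miR-338-3p, the arm of miR-338 most often studied in oligodendrocytes, had levels of 310.0, 652, 664 and 904 CPM in saline rats 1 to 4. Its levels were 526, 721, 737 and 259 CPM in METH rats 1 to 4. The low rats were again saline rat 1 and METH rat 4, and the highest was saline rat 4. Group means were 633 ± 244 CPM in saline and 561 ± 223 CPM in METH (SD, n = 4 each).

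Its partner arm miR-338-5p was at 484, 574, 393 and 414 CPM in saline rats 1 to 4. It was at 253, 306, 504 and 324 CPM in METH rats 1 to 4. Of the METH rats, 3 lay below every saline rat, and METH rat 3 lay within the saline range. Saline rat 1 was not low for this arm. Group means were 467 ± 81.6 CPM in saline and 347 ± 109 CPM in METH (SD, n = 4 each).

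**Figure D1:**
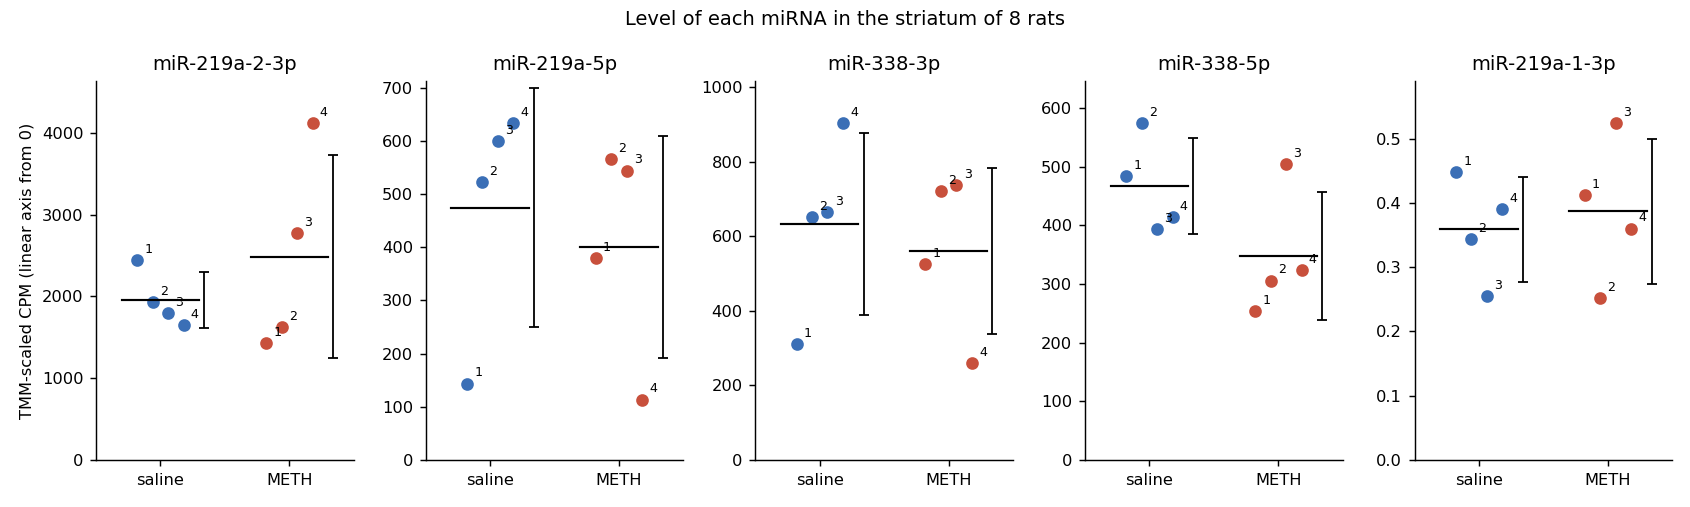
TMM-scaled CPM (linear axes from 0) of each member in 4 saline rats (blue) and 4 METH rats (red), with rat numbers, group means (lines) and SD (bars). Saline rat 1 and METH rat 4 lie lowest for miR-219a-5p, at 144 and 113 CPM, and for miR-338-3p, at 310.0 and 259 CPM, while METH rat 4 lies highest for miR-219a-2-3p, at 4119 CPM.

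The comparison of METH with saline asked whether the oligodendrocyte miRNAs differed after drug self-administration. None of the 4 tested members passed the threshold of an adjusted p under 0.05 by edgeR, against 0% of all 507 tested miRNAs. None had an unadjusted p under 0.05 in that fit either, against 5.52% of all tested miRNAs. The CPM ranges of the METH and saline groups overlapped for all 4 tested members, while 3.16% of tested miRNAs had ranges that did not overlap. Other tests also called 0 members, where DESeq2 called 8 miRNAs (1.58% of those with an adjusted p) and limma voom with quality weights 0 (0%).

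The log2 fold change of miR-338-5p was -0.43 ± 0.26 (SE, adjusted p = 0.818 in the edgeR quasi-likelihood test). Its 95% interval allowed a METH level of 0.498 to 1.11 times the saline level. For miR-219a-2-3p the log2 fold change was 0.35 ± 0.34 (SE, edgeR adjusted p = 0.881), with an interval of 0.758 to 2.13 times. For miR-219a-5p it was -0.24 ± 0.54 (SE, edgeR adjusted p = 0.978), with an interval of 0.369 to 1.93 times. For miR-338-3p it was -0.17 ± 0.39 (SE, edgeR adjusted p = 0.978), with an interval of 0.486 to 1.61 times. Differences within these intervals were not excluded by the data. The median over the 4 members was -0.21, beside -0.02 over all tested miRNAs.

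The directions of 3 members changed when METH rat 4 was left out alone. Without that library, miR-219a-5p moved to 0.082, miR-338-3p to 0.074 and miR-219a-2-3p to -0.014. Without saline rat 1 alone, these 3 were at -0.53, -0.38 and 0.51, and without both rats, which leaves 3 rats a group, they were at -0.22, -0.15 and 0.13, the directions of the full fit. miR-338-5p was at -0.36 without both. Without saline rat 4, miR-338-3p moved to 0.03. Only miR-338-5p among the 4 kept its direction in each fit that left out 1 library, with log2 fold changes from -0.69 to -0.30. Two-sided exact permutation tests of log2 CPM over the 70 assignments of rats gave p = 0.143 for miR-338-5p and p = 0.514 to 0.629 for the other 3, where the smallest possible p is 0.0286.

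**Figure D2:**
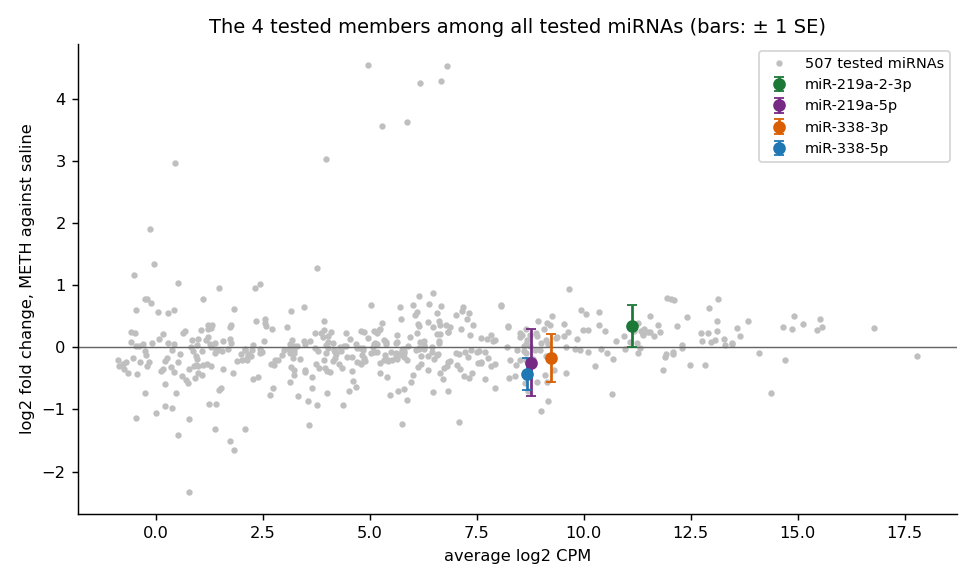
Log2 fold change of METH against saline (vertical axis) against average log2 CPM (horizontal axis) for the 507 tested miRNAs (grey), with the 4 tested members in color and bars of 1 SE. The members lie between -0.43 and 0.35, within the bulk of the other miRNAs.

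The arms of each hairpin were compared within rats as the count of the 3p arm over that of the 5p arm, a ratio that needs no scaling between libraries. For miR-219a-2-3p over miR-219a-5p, the ratio was 17.0, 3.70, 2.99 and 2.61 in saline rats 1 to 4. It was 3.76, 2.87, 5.09 and 36.3 in METH rats 1 to 4. Saline rat 1 and METH rat 4 thus had the highest ratios, and the range between rats was 13.9-fold. Expressed as a share of both arms, the 3p arm held 94.4% and 97.3% in those rats and from 72.3% to 83.6% in the other 6.

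For miR-338-3p over miR-338-5p, the ratio was 0.640, 1.14, 1.69 and 2.18 in saline rats 1 to 4. It was 2.08, 2.36, 1.46 and 0.800 in METH rats 1 to 4. Here saline rat 1 and METH rat 4 had the lowest ratios, and they were the only rats in which the 5p arm of miR-338 outnumbered the 3p arm. The arm balance therefore shifted toward the 3p arm for miR-219a-2 and toward the 5p arm for miR-338 in the same rats.

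**Figure D3:**
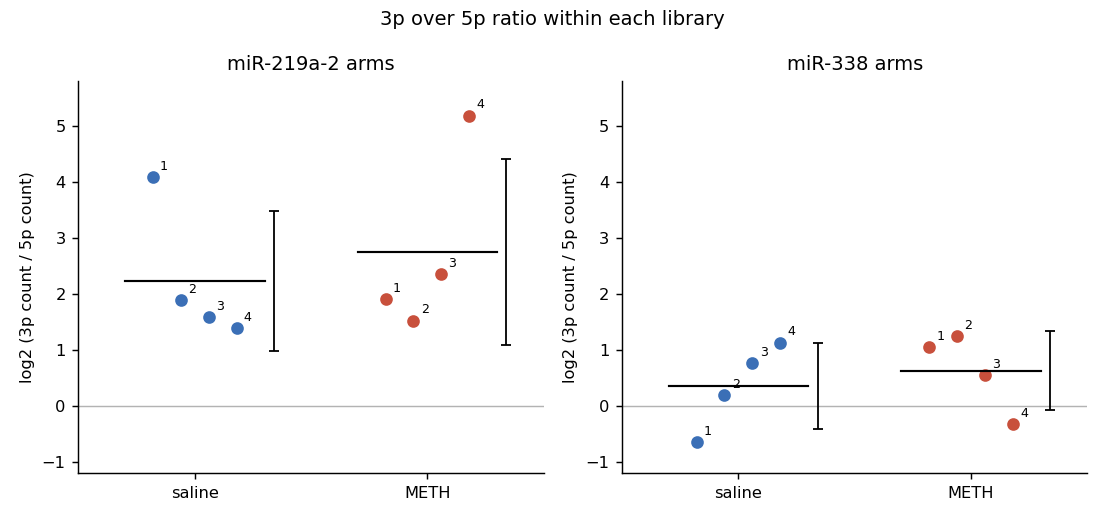
Log2 of the 3p count over the 5p count within each library, for the miR-219a-2 arms and the miR-338 arms, in saline (blue) and METH (red) rats with rat numbers, group means (lines) and SD (bars). Saline rat 1 and METH rat 4 lie highest for miR-219a-2 (4.09 and 5.18) and lowest for miR-338 (-0.64 and -0.32).

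Each treatment group held 1 such rat. The METH minus saline difference in the log2 ratio was 0.51 for the miR-219a-2 arms, with means of 2.74 ± 1.66 in METH and 2.23 ± 1.25 in saline (SD, n = 4 each; two-sided exact permutation test, p = 0.543). It was 0.27 for the miR-338 arms, with means of 0.63 ± 0.70 in METH and 0.36 ± 0.77 in saline (SD, n = 4 each; exact permutation test, p = 0.629). Both had an adjusted p = 0.786 over the 5 ratios of members that were compared. The groups overlapped for both hairpins, and 1.69% of the 178 hairpins with both arms tested had groups that did not overlap. For the miR-219a-2 arms the difference was -0.31 without METH rat 4, 1.12 without saline rat 1 and 0.31 without both. For the miR-338 arms it was 0.59 without METH rat 4, -0.060 without saline rat 1 and 0.26 without both.

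The same ratio was taken for all 178 hairpins to show how far arms vary in these libraries. The SD of the log2 ratio over the 8 rats was 1.39 for miR-219a-2, rank 8 of 178, and 0.70 for miR-338, rank 73, beside a median of 0.61. Without saline rat 1 and METH rat 4 these SDs were 0.35 (rank 106) and 0.40 (rank 86), beside a median of 0.40. These rats held the extreme ratios of both member hairpins, so lower SDs came with the choice of rats. The other hairpins lost rats not chosen on their own values, so these ranks are a description only. In METH rat 4, the ratio of miR-219a-2 lay 3.29 above its median over the 8 rats, which was rank 4 of 178 by size. In saline rat 1 it lay 2.19 above, also rank 4. The ratio of miR-338 lay 1.30 below its median in saline rat 1 (rank 17) and 0.97 below in METH rat 4 (rank 81). METH rat 4 had shifted arm ratios in general: the median absolute deviation over the 178 hairpins was 0.90 there, 0.39 in saline rat 1 and from 0.21 to 0.32 in the other 6 libraries. The part of this general shift in the values of the members was not tested.

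**Figure D4:**
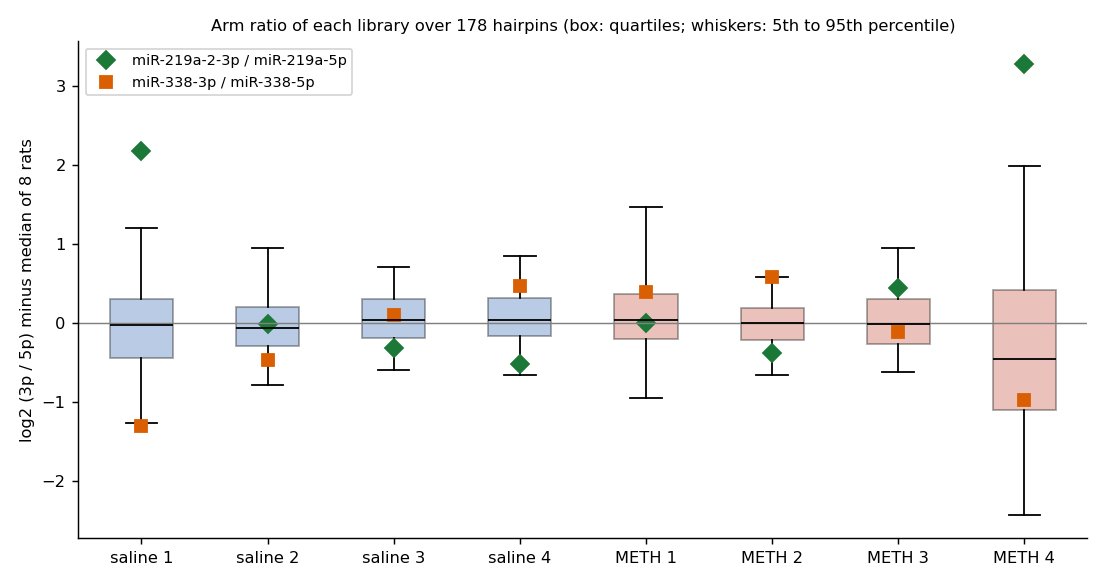
Deviation of the log2 3p over 5p ratio from its median over the 8 rats, by library, over 178 hairpins (boxes show quartiles and whiskers the 5th to 95th percentile), with the miR-219a-2 arms (green diamonds) and the miR-338 arms (orange squares). In saline rat 1 and METH rat 4 the miR-219a-2 arms lie 2.19 and 3.29 above the median, beyond the whiskers, while the miR-338 arms lie 1.30 and 0.97 below it.

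The loci of miR-219a were compared through their 3p arms. miR-219a-1-3p, from chromosome 20, had counts of 10, 8, 7 and 10 in saline rats 1 to 4 and of 6, 5, 13 and 6 in METH rats 1 to 4. These are close to the detection limit in every library, and the miRNA did not pass the low-count filter. In the same libraries, miR-219a-2-3p had from 20794 to 68666 counts, so that the chromosome 3 product outnumbered the chromosome 20 product by 3199-fold to 10556-fold. The summed counts of miR-219a-1-3p were 35 in saline and 30 in METH. Relative to the total counts, the METH level was 1.01 times the saline level, with a 95% exact Poisson interval of 0.602 to 1.70 that covers counting error only. The log2 ratio of miR-219a-2-3p over miR-219a-1-3p was 12.5 ± 0.71 in METH and 12.3 ± 0.29 in saline (SD, n = 4 each; exact permutation test, p = 0.857, adjusted p = 0.857), a difference of 0.12 that was -0.18 without METH rat 4, 0.12 without saline rat 1 and -0.18 without both. How much of miR-219a-5p came from either locus was not tested.

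Between the chromosome 3 and chromosome 10 hairpins, miR-219a-2-3p outnumbered miR-338-3p by 7.88-fold in saline rat 1 and 15.9-fold in METH rat 4. In the other 6 rats it did so by 1.83-fold to 3.76-fold. The METH minus saline difference in this log2 ratio was 0.42, with means of 2.13 ± 1.28 in METH and 1.71 ± 0.90 in saline (SD, n = 4 each; exact permutation test, p = 0.571, adjusted p = 0.786). It was -0.20 without METH rat 4, 0.84 without saline rat 1 and 0.22 without both.

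Next, it was examined which members varied together from rat to rat. Of the 6 pairs of tested members, miR-219a-5p and miR-338-3p, which lie on different chromosomes, were the most alike over the 8 rats. Their Pearson correlation of log2 CPM was 0.983 (exact permutation over all pairings, p = 2.98e-04, adjusted p = 0.00179 over the 6 pairs). Their Spearman correlation was 0.905 (permutation p = 0.00456, adjusted p = 0.0274). Without saline rat 1 and METH rat 4, the rats farthest from the median of miR-219a-5p, Pearson's r was 0.870 over 6 rats (exact permutation p = 0.0306, adjusted p = 0.183) and Spearman's rho was 0.771 (exact permutation p = 0.103, adjusted p = 0.308). With each rat left out alone, Pearson's r was between 0.966 and 0.992. All levels in a library share its scaling factor and its composition.

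Arms of the same hairpin had lower correlations. miR-219a-5p and miR-219a-2-3p had a Pearson correlation of -0.709 (exact permutation p = 0.0525, adjusted p = 0.133) and a Spearman correlation of -0.476 (permutation p = 0.243, adjusted p = 0.486). Without saline rat 1 and METH rat 4 these were 0.314 and 0.0857. miR-338-3p and miR-338-5p had a Pearson correlation of 0.163 (exact permutation p = 0.690, adjusted p = 0.762), a Spearman correlation of 0.214 (permutation p = 0.619, adjusted p = 0.743) and a Pearson correlation of 0.433 without those rats. Over the 178 hairpins, the median correlation between arms was 0.192, and it was negative in 73. The miR-219a-2 arms had rank 13 from the most negative, and rank 108 without saline rat 1 and METH rat 4. As these rats are the extremes of miR-219a-5p, this change of rank is a description only. Between the hairpins, miR-219a-2-3p and miR-338-3p had a Pearson correlation of -0.672 (exact permutation p = 0.0664, adjusted p = 0.133) and a Spearman correlation of -0.333 (permutation p = 0.428, adjusted p = 0.642). The Pearson value was -0.650 without METH rats 3 and 4, the farthest from the median of miR-219a-2-3p, and 0.293 without saline rat 1 and METH rat 4. The remaining pairs, miR-219a-2-3p with miR-338-5p and miR-219a-5p with miR-338-5p, had Pearson values of 0.234 and 0.127 (exact permutation p = 0.581 and 0.762, adjusted p = 0.762 for both) and Spearman values of 0.548 and 0.0714 (permutation p = 0.171 and 0.882, adjusted p = 0.486 and 0.882). Without the 2 rats farthest from the median of the first named, the Pearson values were 0.777 and 0.513, and without saline rat 1 and METH rat 4 they were 0.739 and 0.513.

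**Figure D5:**
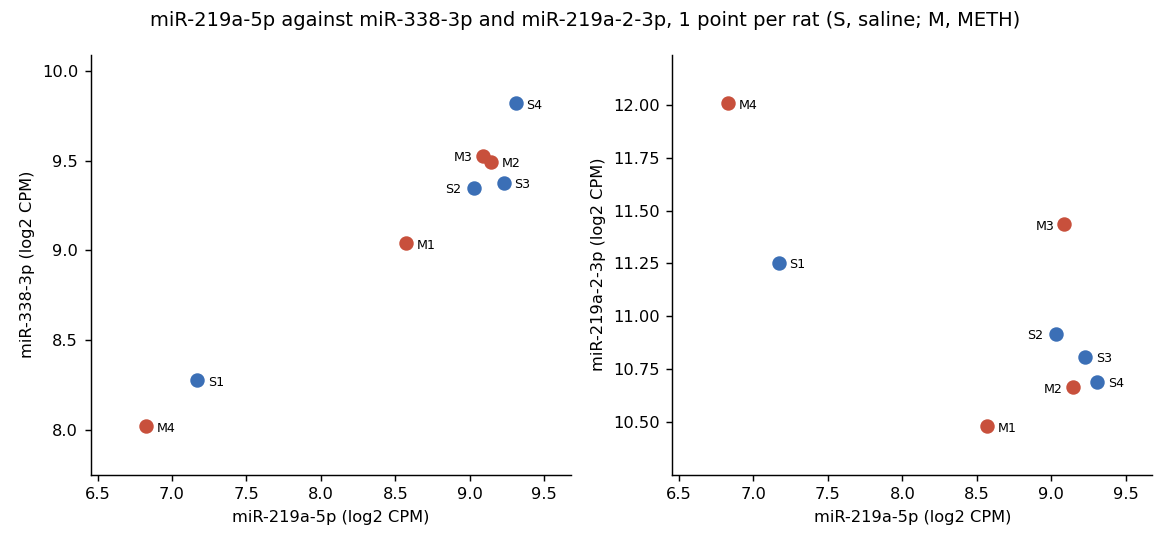
Log2 CPM of miR-338-3p (left) and miR-219a-2-3p (right) against log2 CPM of miR-219a-5p, with 1 point per saline (S, blue) or METH (M, red) rat. On the left the 8 rats follow a rising line (Pearson's r = 0.983, or 0.870 without S1 and M4), and on the right S1 and M4 lie at the upper left (r = -0.709, or 0.314 without them).

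Among the other 506 tested miRNAs, those with patterns closest to each member over the 8 rats were ranked by Pearson correlation, as a description. miR-338-3p was closest to miR-219a-5p, and miR-219a-5p was closest to miR-338-3p. After it, miR-219a-5p was most like miR-33-5p and miR-101b-3p, both at 0.970, which fell to 0.722 and 0.211 without saline rat 1 and METH rat 4. miR-338-3p was next most like miR-31a-3p and miR-425-5p, at 0.967 and 0.964, or 0.887 and 0.748 without those rats. miR-219a-2-3p was most like let-7d-3p, miR-23b-5p and miR-100-5p, at 0.992, 0.969 and 0.964. These were 0.980, 0.914 and 0.918 without those rats. miR-338-5p was most like miR-320-3p, miR-138-1-3p and miR-3550, at 0.831, 0.826 and 0.824.

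Other miRNAs linked to the oligodendrocyte lineage were followed as a list of 15, which includes miR-138-5p and miR-23a-3p, both tied to oligodendrocyte differentiation, and miR-17-5p and miR-19b-3p of the miR-17-92 cluster, tied to precursor proliferation. All 15 were tested, and 0 passed the adjusted threshold or an unadjusted p under 0.05 by edgeR, against 0% and 5.52% of all tested miRNAs, so the counts of this list were near the background. The log2 fold change was above 0 for 8 and below 0 for 7, with a median of 0.10. The highest was 0.36 ± 0.23 (SE, edgeR adjusted p = 0.818) for miR-34a-5p. The lowest was -0.48 ± 0.33 (SE, edgeR adjusted p = 0.818) for miR-17-5p. The list summed to 297801 CPM in METH rat 4 and to between 133600 and 178019 CPM in the other 7 rats. Most of this sum was miR-9a-5p, which is also on the neuron list and was at 204524 CPM in METH rat 4 and between 82989 and 115872 CPM in the others. miR-7a-5p was at 66915 CPM there, against 14314 to 33725 CPM, while the other 13 together were at 26361 CPM, below the 27482 to 37631 CPM of the other rats. miR-145-5p and miR-155-5p of this list are also on the vessel and leukocyte lists.

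Lists for other cell types gave the following levels beside the members. The leukocyte list (5 of 5 tested) summed to between 1082 and 2099 CPM in saline and between 693 and 2067 CPM in METH, with METH rat 4 the lowest library. Nearly all of this sum was miR-150-5p, a lymphocyte miRNA, at 665 CPM in METH rat 4 and between 1053 and 2066 CPM in the others. The myeloid miRNA miR-223-3p was instead highest in METH rat 4, at 14.0 CPM against 2.64 to 4.08 CPM. The vessel list (4 of 4 tested) summed to between 10534 and 11197 CPM in saline and between 10994 and 13865 CPM in METH, with METH rat 4 the highest library. Most of this sum was miR-126a-3p and miR-143-3p, which were both highest in METH rat 4. The other vessel miRNAs were lowest there: miR-126a-5p at 128 CPM against 232 to 389 CPM, and miR-145-5p at 26.8 CPM against 46.2 to 86.3 CPM. The erythrocyte list (2 of 4 tested, with no row for miR-486) summed to 2817 CPM in METH rat 4, against 342 to 648 CPM in the other 7 rats. It was nearly all miR-451-5p, at 2807 CPM in METH rat 4. There miR-144-3p was also highest, at 9.13 CPM against 1.01 to 3.87 CPM, while miR-144-5p, at 0.901 CPM, was below saline rat 4 at 1.06 CPM. The choroid plexus list (3 of 3 tested) summed to 6971 CPM in METH rat 4, against 2708 to 3491 CPM in the other 7 rats. Of this sum in METH rat 4, 6901 CPM was miR-204-5p. There miR-211-5p was also highest, at 52.7 CPM against 6.18 to 10.8 CPM, while miR-204-3p, at 17.6 CPM, lay within the 2.75 to 22.0 CPM of the other rats. The neuron list (5 of 5 tested) had a median log2 fold change of -0.02 and summed to 317143 CPM in METH rat 4. There its main neuronal miRNA, miR-124-3p, was at 97752 CPM, the lowest library, against 127824 to 342449 CPM in the other 7 rats, while miR-9a-5p was highest. None of these lists had a called member, against 0% of all tested miRNAs. By these sums, saline rat 1, which shared the member pattern of METH rat 4, was within the other saline rats for the erythrocyte, leukocyte, neuron and vessel lists, and above them for the choroid plexus list. Single markers in saline rat 1 lay outside the other saline rats. Below them were miR-142-3p, at 5.02 CPM against 16.3 to 26.9 CPM, miR-144-3p, at 1.52 against 2.66 to 3.87 CPM, and miR-137-3p, at 1356 against 1910 to 2470 CPM. Above them was miR-129-5p, at 5897 against 3367 to 3439 CPM. The list for other organs, such as muscle and pancreas (5 of 9 tested), summed to 846 CPM in METH rat 4 and to between 183 and 330.3 CPM in the other METH rats. Its largest part was miR-375-3p of endocrine cells, at 731 CPM in METH rat 4 and between 129 and 285 CPM in the other 7 rats, followed by the muscle miRNA miR-206-3p at 106 CPM, against 30.4 to 66.4 CPM. The muscle miRNA miR-133a-3p was lowest in METH rat 4, at 5.04 CPM against 9.10 to 12.1 CPM, and the pancreas miRNAs miR-216a-5p and miR-217-5p were at most 0.987 CPM in any library. The list summed to 301 CPM in saline rat 1, above the 241 to 261 CPM of the other saline rats. The part of other cell types in the values of METH rat 4 was not tested.

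miRNAs are also annotated on the strands opposite the members. miR-219b shares 20 positions with miR-219a-2-3p, miR-3065-5p shares 20 with miR-338-3p, and miR-3065-3p shares 19 with miR-338-5p. Over the 8 libraries their summed counts were 99, 320 and 393, against 381381, 108030 and 73237 for the members. The strand setting of the counting was not given in the sources used here. In the fit that called 0% of all tested miRNAs, the 3 had log2 fold changes of 0.09, -0.13 and -0.26 (edgeR adjusted p-values of 0.978, 0.978 and 0.927).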

How the data were processed

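Small RNA libraries with unique molecular identifiers were sequenced from 8 striatum samples, 1 per rat. The authors trimmed adapters with cutadapt 1.18, aligned reads to rn6 with STAR 2.7.0e and counted them with featureCounts (Subread 1.6.4). The deposited values are raw counts per mature miRNA. The annotation release, the use of the identifiers and the rule for reads with several alignments were not given in the sources used here, and the latter bears on miR-219a-5p, whose sequence lies at 2 loci. Counts of 35 miRNAs were even in every library, and 0 members were among them.

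Groups followed the labels. Low-count miRNAs were removed with filterByExpr (minimum count 10), and TMM factors (0.766 to 1.15) scaled the libraries. METH was compared with saline in edgeR 4.0.16 (R 4.3.3) by its quasi-likelihood test, the study also having used edgeR, on a model of group alone, with Benjamini-Hochberg adjustment over 507 miRNAs. The study did not name its edgeR test, and it reported miRNAs significantly higher in METH, with no member among them. SE was derived from the log2 fold change and its F statistic. Log2 CPM used a prior count of 2 and arm ratios a pseudocount of 0.5 on counts. Intervals are 95%. Arms were paired by RefSeq hairpin. Ratios and correlations were tested by exact permutation. DESeq2 1.42.0, limma 3.58.1 (voom) and the other alternatives appear in the closing section.

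The members, the lists and the tests were chosen with earlier results of these data known. Leaving out saline rat 1 and METH rat 4 together was chosen after seeing the data. By rule, the named miRNAs are all members, the 3 nearest patterns of each tested member, the extremes of the lineage list and the antisense miRNAs miR-219b and miR-3065. Other miRNAs of the lists are named as examples or, as miR-9a-5p, miR-7a-5p and the single markers given for METH rat 4 and saline rat 1, after their values were seen.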

Additional observations from a re-analysis of the deposited data

Results flagged for a closer look

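In saline rat 1, miR-219a-5p was at 7.17 log2 CPM, while the other saline rats lay between 9.03 and 9.31. The gap to the nearest of them was 0.871 of the range of the group, above the 95% critical value of Dixon's test for a group of 4. Over the 18 groups of 4 values examined for the members and their ratios, chance gives about 0.9 such gaps, and 1 was found. METH rat 4 was at 6.83 log2 CPM for the same miRNA, with a gap of 0.752.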

How the results depend on the processing

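The number of miRNAs called was 0 in the quasi-likelihood fit of edgeR, 8 with DESeq2 (with or without independent filtering) and 6 with the exact test of edgeR. It was 0 with the other scalings, filters, limma voom with quality weights and halved counts of the miRNAs whose counts were always even. Leaving out each library in turn, it ranged from 0 to 5, the most without METH rat 1. The count at an unadjusted p under 0.05 was 28, against 16 with at least 10 counts in every library, 58 with limma voom and 54 without METH rat 1. No member was called in any of these fits. All 48 log2 fold changes of members under the other settings kept their sign, but not their size. With limma voom and quality weights, miR-219a-5p was at -0.064, miR-219a-2-3p at 0.062 and miR-338-3p at -0.024, against -0.24, 0.35 and -0.17 in the quasi-likelihood fit. With library totals miR-219a-2-3p was at 0.14, and with upper quartile factors miR-338-3p was at -0.090 and miR-219a-5p at -0.16. With 1 library left out, they ranged from -0.53 to 0.082 for miR-219a-5p, from -0.014 to 0.54 for miR-219a-2-3p, from -0.38 to 0.074 for miR-338-3p and from -0.69 to -0.30 for miR-338-5p.

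The difference in log2 ratio ranged in the same way from -0.060 to 0.59 for miR-338-3p over miR-338-5p, from -0.31 to 1.12 for miR-219a-2-3p over miR-219a-5p, from -0.12 to 1.01 for miR-219a-1-3p over miR-219a-5p, from -0.18 to 0.39 for miR-219a-2-3p over miR-219a-1-3p and from -0.20 to 0.84 for miR-219a-2-3p over miR-338-3p. Without saline rat 1 and METH rat 4 together, that of miR-219a-2-3p over miR-219a-1-3p was -0.18, where the smallest exact p for 3 rats against 3 cannot pass the threshold.

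Without saline rat 1 and METH rat 4, which are also the rats farthest from the median of miR-219a-5p, correlations were 0.314 for miR-219a-5p with miR-219a-2-3p, 0.870 for miR-219a-5p with miR-338-3p and 0.293 for miR-219a-2-3p with miR-338-3p. With 1 library left out, correlations ranged from -0.846 to -0.356 for miR-219a-5p with miR-219a-2-3p, from -0.828 to -0.290 for miR-219a-2-3p with miR-338-3p, from -0.105 to 0.377 for miR-219a-5p with miR-338-5p, from -0.0684 to 0.757 for miR-219a-2-3p with miR-338-5p and from -0.0461 to 0.399 for miR-338-3p with miR-338-5p. The first 2 of these passed the adjusted threshold without METH rat 3, at an exact permutation adjusted p = 0.0429. That of miR-219a-5p with miR-338-3p stayed between 0.966 and 0.992.

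With the rat number as a replicate block there were 0 calls and 23 miRNAs at an unadjusted p under 0.05, and log2 fold changes were -0.22 for miR-219a-5p, 0.23 for miR-219a-2-3p, -0.15 for miR-338-3p and -0.46 for miR-338-5p. The labels give no link between same-numbered rats of different groups. The correlations of their deviations from group means were -0.339, -0.155, -0.154 and -0.357. Such values over miRNAs cannot show whether these rats shared a cage or a batch, which was not tested. Across all miRNAs the median log2 fold change was -0.02 with TMM, -0.12 when scaled by library totals and 0.08 when scaled by upper quartiles. Apart from changes that come with fewer rats, the cause was not tested.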

Other observations

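Summed over both arms, the miR-338 hairpin was at 794, 1226, 1058 and 1318 CPM in saline rats 1 to 4 and at 780, 1027, 1241 and 583 CPM in METH rats 1 to 4. The miR-219a-2 hairpin, with all miR-219a-5p counted to it, was at 2587, 2456, 2393 and 2287 CPM in saline rats and at 1808, 2190, 3315 and 4233 CPM in METH rats. METH rat 4 was therefore lowest for one hairpin and highest for the other. The summed level of the 4 tested members was between 3381 and 3682 CPM in the saline rats and between 2588 and 4816 CPM in the METH rats.

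The members that were low in saline rat 1 and METH rat 4 were those with the lower GC content, 38.1% for miR-219a-5p and 39.1% for miR-338-3p, against 45.5% for both miR-219a-2-3p and miR-338-5p. Over 465 tested miRNAs with a RefSeq sequence, the Spearman correlation between GC content and the deviation of a library from the other rats of its group was 0.113 in saline rat 1 and -0.0312 in METH rat 4, and between -0.176 and 0.337 in the other 6 libraries. These are descriptions across miRNAs, which are not independent replicates.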
